A study of Mus musculus with 7 samples.

Results

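Collagen genes were taken as every gene of the count table whose mouse symbol has the form Col, number, a, number (such as Col1a1). This rule found 44 of the 53715 gene identifiers, of which 11 encode fibrillar collagens, 6 encode the type IV collagens of basement membranes and 27 encode other collagens. Interscapular brown adipose tissue, a fat that burns fuel for heat, was taken at 10 weeks of age from male mice of the C57BL/6J strain. The groups were Wild-type (WT) and PGAM5 KO (KO). PGAM5, which the KO animals lack, is a mitochondrial phosphatase. The labels give no further detail of the allele. Poly(A) RNA of 3 WT and 3 KO individuals was counted. A KO 4 sample is also listed but was not analysed here. No collagen gene passed the adjusted threshold in either direction. Of the 28 members with enough counts to test, 27 had a higher fitted level in KO (49.8% of all genes did), and for 21 of the 28 the highest library was KO 3 (26.5% of all genes).

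Collagens are secreted proteins whose chains wind into helical rods. Fibrillar collagens pack end to end and side by side into the tensile fibrils of connective tissue, while type IV collagen forms the sheet-like network of basement membranes. Other families bind to fibril surfaces, form beaded filaments, span the cell membrane or carry sugar-rich domains at basement membranes. In fat, each adipocyte is wrapped in a basement membrane, and fibrils are made mostly by fibroblasts and their adipogenic relatives. In whole tissue, fewer cells of a type and less RNA per cell cannot be told apart.

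Start-site windows of RefSeq (build GRCm38.p6, from 250 bases before to 50 after a transcript start) matched 35 of the 44 members in 38 windows. The 100 bases before the start are printed for the type V chain genes Col5a1 and Col5a3, which had the smallest fibrillar p-values, for Col3a1, the fibrillar gene of highest count, and for Col27a1, the one tested member with a negative fold change. All are read 5′ to 3′ on the strand of the gene, and capitals mark the GC box letters GGGCGG or, on the other strand, CCGCCC.
Col5a1, chr2:27886325-27886424, plus strand: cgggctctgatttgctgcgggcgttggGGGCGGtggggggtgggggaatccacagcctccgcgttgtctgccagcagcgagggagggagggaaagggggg
Col5a3, chr9:20815068-20815167, minus strand: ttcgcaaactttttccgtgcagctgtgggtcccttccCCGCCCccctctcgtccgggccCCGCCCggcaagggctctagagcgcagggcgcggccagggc
Col3a1, chr1:45311438-45311537, plus strand: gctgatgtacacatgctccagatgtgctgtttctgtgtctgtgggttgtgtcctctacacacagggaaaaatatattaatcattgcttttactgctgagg
Col27a1, chr4:63215312-63215411, plus strand: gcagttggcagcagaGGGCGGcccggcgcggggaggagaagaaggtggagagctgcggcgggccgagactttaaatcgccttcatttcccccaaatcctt
The Col3a1 window was the poorest in G and C of the 4, with 37.7% against 75.0% for Col5a1, 63.3% for Col5a3 and 61.7% for Col27a1. A GC box was present on either strand in 23 of the 38 collagen windows (60.5%) and in 35.7% of all 32851 windows. The median share of G and C was also higher in the collagen windows, at 59.8% against 52.7%. The GC box shares were not adjusted for it. The letters CCAAT or their complement ATTGG were in 13 collagen windows (34.2%) against 37.4% of all windows. TATAAA or its complement TTTATA was in 5 (13.2%) against 13.6%. The 3 motifs were searched separately, overlaps between them were not counted, and a match is a description of the window only.

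Col4a1 and Col4a2, which encode the chains of the ordinary type IV network, lie head to head on chromosome 8. Their RefSeq starts cross, so that the first 22 bases of the transcripts lie over each other on opposite strands, chr8:11312805-11312826. The stretch is printed on the plus strand, because reads there belong to either gene unless strand was counted. Motifs are not marked by capitals in it, though it holds the GC box letters.
Col4a1 and Col4a2 overlap: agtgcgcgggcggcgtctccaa

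Total counts ran from 18034204 to 33617762 per library, and 15123 genes passed the filter on low counts. Pgam5 had 167, 122 and 186 counts in WT 1 to WT 3 and 1, 3 and 11 counts in KO 1 to KO 3, as the labels say. Ucp1, the heat-producing uncoupling protein that defines brown adipocytes, was present in every library at 1638 CPM (counts scaled to a common library size) or more. WT 2 and KO 3 lay at the opposite ends of the leading axis of a principal component analysis (45.6% of variance). WT 2 had the highest share of counts from the mitochondrial genome (43.0%) and KO 3 the lowest (19.7%), with the others between 28.2% and 34.1%. CPM here are scaled by TMM, which corrects for composition. Fold changes are log2, KO over WT, fitted in edgeR over all 15123 genes (quasi-likelihood), and SE is their standard error.

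The comparison asks how collagen expression differs in brown fat that lacks PGAM5. Summed over the 44 genes, collagens stood at 814, 704 and 1108 CPM (WT 1 to WT 3) and 867, 1105 and 1824 CPM (KO 1 to KO 3). KO 1 and, narrowly, KO 2 lay within the WT range, and KO 3 lay above every other library. Group means were 875 ± 209 CPM for WT and 1265 ± 498 CPM for KO (SD, 3 libraries each), and their difference was smaller than the SD of the KO libraries. As a share of all raw counts, collagens took 0.0806%, 0.0585% and 0.112% (WT) and 0.0873%, 0.121% and 0.197% (KO). With the mitochondrial genome left out of the total, the shares were 0.119%, 0.103% and 0.161% (WT) and 0.132%, 0.169% and 0.245% (KO).

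**Figure D1:**
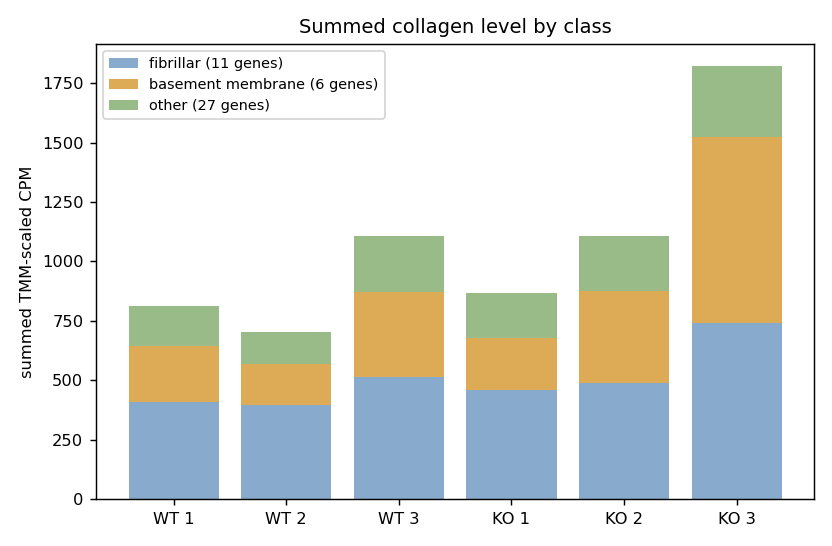
Summed level of each collagen class (stacked bars, TMM-scaled CPM) in each of the 6 libraries. KO 3 reached 1824 CPM, while KO 1 and KO 2 lay within the WT range of 704 to 1108 CPM.

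The makeup of the collagen mRNA also differed between libraries. Fibrillar genes took 46.3% to 56.1% of the summed level in WT and 40.5% to 52.8% in KO. Type IV genes took 24.4% to 32.3% in WT and 25.4% to 42.9% in KO. KO 3 was the one library in which the summed CPM of type IV genes, at 42.9%, exceeded that of fibrillar genes, at 40.5%. These shares are not corrected for gene length, so they do not rank the classes by amount of mRNA.

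Of the 28 tested members, 0 were higher and 0 lower at an adjusted p under 0.05. Over all genes, 9 (0.0595%) passed, 3 of them higher (0.0198%) and 6 lower (0.0397%). At an unadjusted p under 0.05 there were 3 members higher (Col5a1, Col5a3 and Col14a1) and 0 lower, against 6.3% of all genes higher and 5.49% lower. DESeq2 called 0 members and had 7 higher at an unadjusted p under 0.05, against 3.57% of the 27874 genes in that fit. The KO libraries all exceeded the WT libraries for 4 members (Col5a1, Col4a3, Col14a1 and Col23a1), which is 14.3% against 10.1% of all genes. They were all below the WT libraries for 0 members, against 9.39% of all genes. The median log2 fold change was 0.50 over the tested collagens and -0.0019 over all genes. It was 0.49 for 8 fibrillar, 0.42 for 5 type IV and 0.52 for 15 other members.

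The KO libraries did not contribute alike. KO 3 lay above all 3 WT libraries for 24 of the 28 members, against 33.2% of all genes. KO 2 did so for 13 members, against 23.7% of genes, and KO 1 for 5, against 24.04%. WT 2 was the lowest library for 15 members, against 27.1% of genes. Without WT 2 and KO 3, 20 members were positive and 8 negative, and the median was 0.11. It was 0.24 without KO 3 alone, again with 20 positive and 8 negative.

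**Figure D2:**
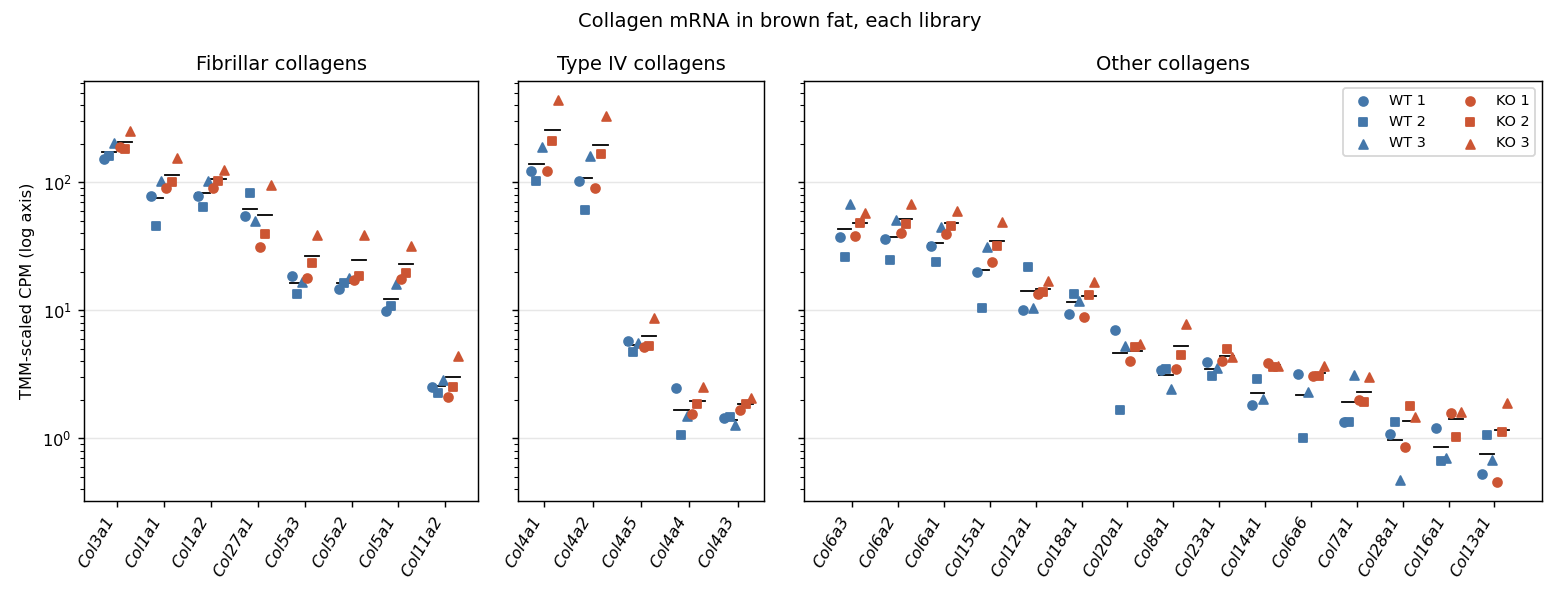
TMM-scaled CPM (log axis) of the 28 tested collagen genes by class, with 1 point per library and a black bar at the mean of each group. KO 3 (orange triangles) is the highest library for 21 of 28 genes, while KO 1 lies within the WT range for 19 and KO 2 for 14.

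Type I collagen, the main fibril of connective tissue, is made of chains encoded by Col1a1 and Col1a2, and type III collagen, encoded by Col3a1, runs with it in soft tissue. Col1a1 stood at 78.7, 45.9 and 102 CPM (WT) and 89.6, 101.5 and 154 CPM (KO). Col1a2 stood at 78.8, 64.4 and 103 CPM (WT) and 90.2, 103 and 125 CPM (KO). For both chains KO 1 and KO 2 lay within the WT range and KO 3 lay above it. The log2 fold changes were 0.60 (SE 0.30, adjusted p = 0.452 by edgeR) and 0.37 (SE 0.21, adjusted p = 0.487 by edgeR), and they were 0.08 and 0.09 without WT 2 and KO 3. Col3a1 was the fibrillar gene of highest CPM, at 151, 159 and 203 CPM (WT) and 190, 182 and 250 CPM (KO). Its libraries overlapped, with a log2 fold change of 0.28 (SE 0.20, adjusted p = 0.564 by edgeR). The files' identifiers are ENSMUSG00000001506.10 for Col1a1 (chromosome 11, 94936224 to 94953042, mm10), ENSMUSG00000029661.16 for Col1a2 (chromosome 6, 4504814 to 4541544) and ENSMUSG00000026043.18 for Col3a1 (chromosome 1, 45311538 to 45349706).

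Type V collagen sits in the core of type I fibrils and sets how they start and how thick they grow. Col5a1 (ENSMUSG00000026837.15, chromosome 2, 27886425 to 28039514) was at 9.82, 10.8 and 16.0 CPM (WT) and 17.7, 19.4 and 32.0 CPM (KO). Every KO library was above every WT library. Short antisense transcripts, 2810430I11Rik (25 counts) and Gm13372 (6 counts), share exons with Col5a1 (2446 counts). Its log2 fold change of 0.91 (SE 0.28, 95% interval 0.29 to 1.53) had the smallest p of the family (unadjusted p = 0.00879) but did not pass (adjusted p = 0.350 by edgeR). It was 0.60 without KO 3 and 0.52 without WT 2 and KO 3. Col5a3 was at 18.7, 13.4 and 16.6 CPM (WT) and 18.0, 23.4 and 38.9 CPM (KO). KO 1 lay within the WT range, and the log2 fold change was 0.72 (SE 0.28, adjusted p = 0.398 by edgeR), or 0.35 without KO 3 and 0.24 without WT 2 and KO 3. Col5a2, next to Col3a1 on chromosome 1, was at 14.6, 16.3 and 18.0 CPM (WT) and 17.4, 18.5 and 38.5 CPM (KO). KO 3 stood alone there. Its log2 fold change was 0.60 (SE 0.30, adjusted p = 0.442 by edgeR), or 0.14 without KO 3.

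Col27a1 encodes a fibrillar collagen known from cartilage and was the one tested member with a negative fold change. Its intron also holds the microRNA gene Mir455, which has 0 counts in these poly(A) libraries. Col27a1 (ENSMUSG00000045672.15, chromosome 4, 63214004 to 63334991) was at 54.9, 82.2 and 50.2 CPM (WT) and 31.3, 39.1 and 95.03 CPM (KO). KO 1 and KO 2 lay below every WT library and KO 3 above them all, and the highest WT library was WT 2. The log2 fold change was -0.18 (SE 0.38, adjusted p = 0.855 by edgeR). It was -0.82 without KO 3 (unadjusted p = 0.00926) and -0.57 without WT 2 and KO 3 (unadjusted p = 0.00772), while it turned positive without WT 2 alone (0.065), KO 1 (0.11) or KO 2 (0.018). Col11a2, a minor fibrillar chain, was at 2.27 to 2.88 CPM in WT and 2.09 to 4.40 CPM in KO, with a log2 fold change of 0.23 (SE 0.35), or -0.15 without KO 3 and -0.22 without WT 2 and KO 3. Col24a1 and Col11a1 had 23 and 18 counts in all and were not tested. Col2a1, the main collagen of cartilage, had 0 counts in every library, and a count of 0 allows up to 0.0883 to 0.200 scaled CPM by counting error alone.

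The ordinary type IV chains ran over a wide range among the libraries. Col4a1 (ENSMUSG00000031502.11, chromosome 8, 11198423 to 11312826) was at 122, 103 and 190 CPM (WT) and 122, 211 and 438 CPM (KO). Col4a2 (ENSMUSG00000031503.13, chromosome 8, 11312805 to 11449287) was at 102, 60.4 and 159 CPM (WT) and 90.05, 165 and 331 CPM (KO). Both genes were lowest in WT 2 and highest in KO 3, and KO 1 lay within the WT range. The log2 fold changes were 0.89 (SE 0.42, adjusted p = 0.428 by edgeR) and 0.86 (SE 0.46, adjusted p = 0.468 by edgeR). Without WT 2 and KO 3 they were 0.10 and -0.03.

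Other type IV chains were much lower in CPM. Col4a5, an X-linked chain of specialised basement membranes, was at 5.78, 4.74 and 5.53 CPM (WT) and 5.18, 5.24 and 8.65 CPM (KO), and KO 1 and KO 2 lay within the WT range. Col4a3, which forms a network with Col4a4 and Col4a5 best known in the kidney, was at 1.45, 1.47 and 1.27 CPM (WT) and 1.68, 1.85 and 2.05 CPM (KO). Its groups did not overlap, yet the log2 fold change was 0.42 (SE 0.34, adjusted p = 0.607 by edgeR). A gene on the opposite strand, C430014B12Rik, with 57 counts against 223 for Col4a3, shares exons with it. Col4a4 stood at 2.46, 1.07 and 1.501 CPM (WT) and 1.55, 1.85 and 2.54 CPM (KO), and its groups overlapped. The log2 fold changes of Col4a5 and Col4a4 were 0.24 (SE 0.28) and 0.22 (SE 0.41). Col4a6, with 36 counts over the 6 libraries, was below the filter.

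**Figure D3:**
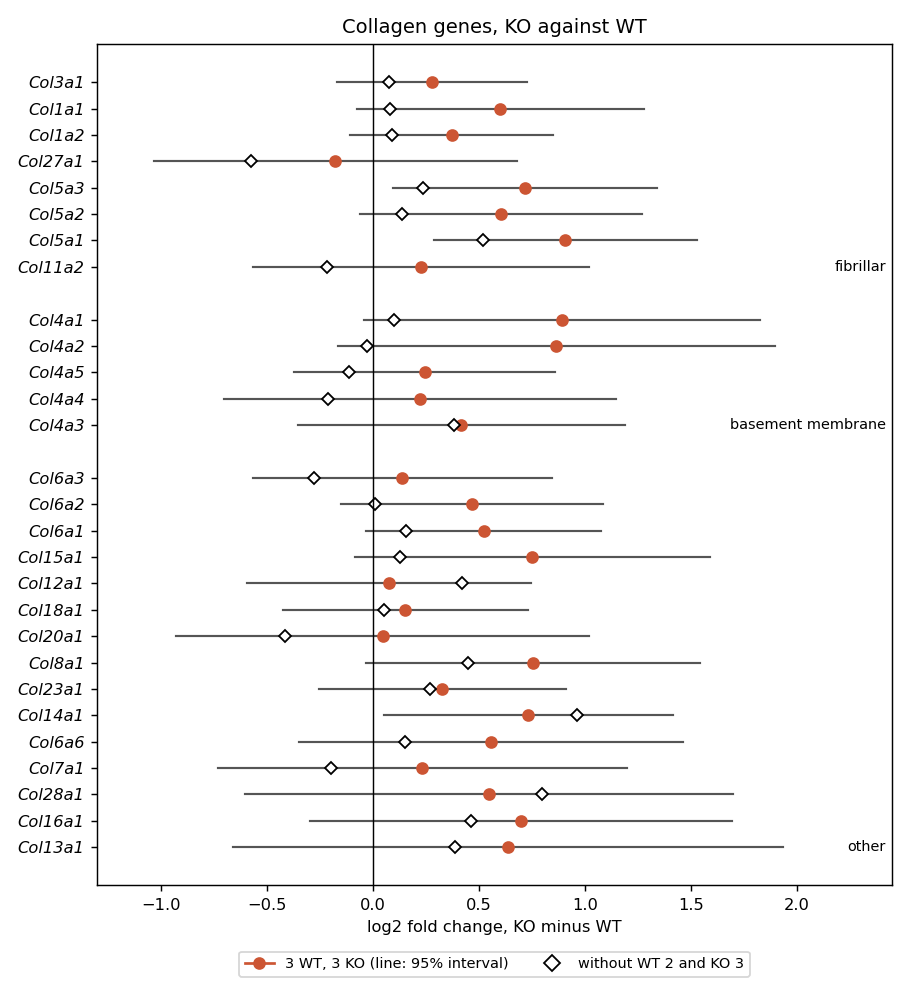
Log2 fold change (KO minus WT) of the 28 tested collagen genes from 3 WT and 3 KO libraries, with 95% intervals as lines, and without WT 2 and KO 3 as open diamonds. Filled points are positive for 27 of 28 genes, and open diamonds for 20 of 28.

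Type VI collagen forms beaded filaments around cells, from chains encoded by Col6a1, Col6a2 and Col6a3, and is abundant in fat. Col6a1 (ENSMUSG00000001119.7, chromosome 10, 76708792 to 76726168) was at 32.1, 23.8 and 44.8 CPM (WT) and 39.4, 46.0 and 59.7 CPM (KO). Col6a2, on the same chromosome, was at 36.4, 24.9 and 50.7 CPM (WT) and 40.4, 47.3 and 67.8 CPM (KO). Col6a3 was at 37.3, 26.1 and 67.2 CPM (WT) and 38.1, 48.0 and 58.1 CPM (KO). WT 2 was the lowest library for each chain, while the highest was KO 3 for Col6a1 and Col6a2 and WT 3 for Col6a3. The log2 fold changes were 0.52 (SE 0.25, adjusted p = 0.428 by edgeR), 0.47 (SE 0.28, adjusted p = 0.497 by edgeR) and 0.14 (SE 0.31, adjusted p = 0.862 by edgeR). Without WT 2 and KO 3 they were 0.15, 0.01 and -0.28. Of the further type VI genes, Col6a6 was at 1.001 to 3.19 CPM in WT and 3.05 to 3.66 CPM in KO (log2 0.56, SE 0.40), Col6a5 had 21 counts and Col6a4 had 0.

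Type XV and type XVIII collagens carry sugar chains and sit at the outer face of basement membranes. Col15a1 was at 20.1, 10.5 and 31.2 CPM (WT) and 23.8, 32.1 and 48.8 CPM (KO). KO 1 lay within the WT range, and the log2 fold change was 0.75 (SE 0.37, adjusted p = 0.448 by edgeR), or 0.13 without WT 2 and KO 3. Col18a1, whose C-terminal fragment is endostatin, was at 9.45 to 13.5 CPM in WT and 8.87 to 16.7 CPM in KO (log2 0.15, SE 0.26, or -0.07 without KO 3).

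Fibril-associated collagens bind to the surface of fibrils and have interrupted helices. Col14a1 (ENSMUSG00000022371.16, chromosome 15, 55307750 to 55520803), which encodes a chain that decorates type I fibrils, was at 1.82, 2.93 and 2.03 CPM (WT) and 3.91, 3.61 and 3.66 CPM (KO). Its groups did not overlap, and KO 3 was not the highest KO library. The log2 fold change was 0.73 (SE 0.30, adjusted p = 0.415 by edgeR). It was 0.75 without KO 3 and 0.96 without WT 2 and KO 3. With 1 library left out it ran from 0.60 (without WT 1) to 0.95 (without WT 2). Col12a1, which encodes a related chain, was at 10.1, 21.8 and 10.5 CPM (WT) and 13.5, 14.0 and 16.9 CPM (KO). WT 2 was here the highest library, and the log2 fold change was 0.08 (SE 0.30, adjusted p = 0.923 by edgeR), or 0.52 without WT 2. Col20a1 (log2 0.05, SE 0.43, or -0.41 without WT 2 and KO 3) shares exons with BX649560.1 on the same strand, which had 517 counts against its 696. Col16a1 had a log2 fold change of 0.70 (SE 0.44).

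Col8a1 encodes a short-chain collagen that forms lattices in vessel walls. It was at 3.43, 3.47 and 2.41 CPM (WT) and 3.46, 4.46 and 7.77 CPM (KO). KO 1 lay between WT libraries, and the log2 fold change was 0.76 (SE 0.35, adjusted p = 0.428 by edgeR), or 0.36 without KO 3. Of the collagens that span the cell membrane, Col23a1 was at 3.07 to 3.92 CPM in WT and 4.00 to 4.98 CPM in KO (log2 0.33, SE 0.26), and Col13a1 was at 0.525 to 1.07 and 0.455 to 1.91 CPM (log2 0.64, SE 0.58). Col7a1, the anchoring fibril collagen of skin, had a log2 fold change of 0.23 (SE 0.43), or -0.20 without WT 2 and KO 3, and Col28a1 one of 0.55 (SE 0.51).

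In all, 16 of the 44 members were below the filter, with 0 to 42 counts over the 6 libraries. Col9a3 (42 counts) was the highest of these, and Col13a1 (127 counts) was the tested member of lowest count. Apart from those named above, the untested members were Col17a1 (30 counts), Col19a1 (26), Col10a1 (20), Col8a2 (12), Col26a1 (7), Col9a1 (3), Col22a1 (3), Col9a2 (2) and Col25a1 (2). Several of them belong to cartilage, skin or eye. Of 6 keratinocyte markers, Krt5, Krt14 and Dsg3 had 0 counts, and the list summed to 2.50 to 3.27 CPM in WT and 2.35 to 3.05 CPM in KO. Of 9 cartilage and bone markers, Matn1 and Ibsp had 0 counts, and the list summed to 2.001 to 4.07 and 2.66 to 3.09 CPM.

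Levels of different genes were compared per kilobase of exon (RPKM, the scaled CPM divided by the summed length of all annotated exons). The highest mean levels over the 6 libraries were 26.5 RPKM for Col4a1, 22.9 for Col4a2, 19.3 for Col3a1, 14.5 for Col1a1, 9.35 for Col6a1 and 7.57 for Col1a2. In WT alone the first 3 did not differ beyond their spread, at 18.5 ± 6.09, 16.2 ± 7.50 and 17.5 ± 2.85 RPKM (SD, n = 3 each). The order depended on the length used. Divided by the longest transcript, Col3a1 came first at 34.1 RPKM, before Col4a1 at 29.9, Col4a2 at 23.5, Col1a2 at 17.6 and Col1a1 at 16.1.

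Ratios between chains within a library do not depend on library scaling, and 5 were compared. The per-length ratio of Col6a3 to Col6a1 was 0.426, 0.401 and 0.549 (WT) and 0.354, 0.383 and 0.356 (KO). The groups did not overlap, with a log2 difference of -0.32 (exact two-sided permutation p = 0.1, the smallest that 3 against 3 allows, and 0.5 adjusted over the 5 ratios), or -0.18 without WT 3. The ratio of Col4a1 to Col4a2 was 1.06, 1.51 and 1.06 (WT) and 1.199, 1.13 and 1.17 (KO). WT 2 stood apart from the other 5 libraries there, and the log2 difference was -0.03 (exact permutation p = 1). Col1a1 to Col1a2 gave 1.89, 1.35 and 1.88 (WT) and 1.88, 1.87 and 2.32 (KO) (log2 difference 0.25, exact permutation p = 0.6). WT 2 was again the lowest and KO 3 the highest, and the other 4 libraries lay between 1.87 and 1.89. Divided by longest transcripts, the mean of this ratio was 0.814 in WT and 0.964 in KO in place of 1.71 and 2.02, so the files do not fix which chain is more abundant. Col3a1 to Col1a1 had a log2 difference of -0.36 (exact permutation p = 0.3), with WT 2 highest at 2.32 and KO 3 lowest at 1.09. It was -0.089 without WT 2 and -0.00044 without WT 2 and KO 3. Col6a1 to Col6a2 differed by 0.06 (exact permutation p = 0.4).

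Genes that make, fold and cross-link collagen went in both directions. Of 36 listed, 32 were tested and 0 passed the adjusted threshold. There were 4 higher and 3 lower at an unadjusted p under 0.05, against 6.3% and 5.49% of all genes. The median log2 fold change was 0.08. Loxl1, which encodes a cross-linking lysyl oxidase best known for elastin, was at 5.09, 5.27 and 8.09 CPM (WT) and 14.7, 17.5 and 34.3 CPM (KO). Every KO library was above every WT library, and the log2 fold change was 1.84 (SE 0.34, adjusted p = 0.194 by edgeR), or 1.29 without WT 2 and KO 3. P3h3, of the prolyl 3-hydroxylase family, had a log2 fold change of 0.95 (SE 0.27, adjusted p = 0.330 by edgeR). Serpinh1, which encodes the collagen chaperone HSP47, was at 118, 124 and 271 CPM (WT) and 149, 139 and 190 CPM (KO) (log2 -0.10, SE 0.31, or -0.43 without WT 2 and KO 3), and Mia2, of collagen export, had a log2 fold change of 0.02 (SE 0.15). The other 5 genes of those counts were picked after their values were seen. Colgalt2 (log2 1.01) and Bmp1 (0.52) were higher, and P4ha1 (-1.86), Plod2 (-1.39) and Tmem38b (-0.53) lower. Plod2 was at 3.35, 5.80 and 17.2 CPM (WT) and 2.79 to 3.77 CPM (KO), and its groups overlapped. The Tmem38b groups overlapped too, and its log2 fold change was -0.25 without WT 2 and KO 3. P4ha1, which encodes a prolyl 4-hydroxylase subunit, was at 154 CPM in WT 3 against 23.7 to 25.9 CPM in WT 1 and WT 2 and 13.8 to 23.2 CPM in KO.

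Among 13 tested genes of proteins that bind or organise fibrils, of 15 listed, 0 passed the adjusted threshold, and the median was 0.14. In this list 1 was higher and 0 lower at an unadjusted p under 0.05, against 6.3% and 5.49% of all genes. Tnxb, which encodes the matrix protein tenascin-X, was at 40.6, 41.4 and 39.8 CPM (WT) and 50.3, 60.9 and 114 CPM (KO). Its groups did not overlap (log2 0.89, SE 0.28, adjusted p = 0.350 by edgeR), and the value was 0.47 without WT 2 and KO 3. Prelp, a leucine-rich proteoglycan of basement membranes, was at 368 to 436 CPM in WT and 287 to 321 CPM in KO (log2 -0.38, SE 0.17), and Sparc, a collagen-binding glycoprotein, had a log2 fold change of 0.05 (SE 0.18), or -0.05 without WT 2 and KO 3. The Sparc groups overlapped.

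Basement membrane partners of type IV collagen, such as laminins, nidogens and perlecan, numbered 15 tested of 16 listed. None passed the adjusted threshold in edgeR, and the median was 0.35. Among them 3 were higher and 0 lower at an unadjusted p under 0.05, against 6.3% and 5.49% of all genes. Hspg2, which encodes perlecan, was at 152, 93.7 and 209 CPM (WT) and 186, 270 and 535 CPM (KO). As with Col4a1 and Col4a2, WT 2 was lowest and KO 3 highest. The log2 fold change was 1.12 (SE 0.40, adjusted p = 0.375 by edgeR), or 0.34 without WT 2 and KO 3. The laminin gene Lama3, with 122 counts in all, was at 0.200 to 0.530 CPM in WT and 1.18 to 1.61 CPM in KO. Its lowest library, WT 2, stood at the level that 3 counts give there. The log2 fold change of Lama3 was 1.68 (SE 0.49, adjusted p = 0.339 by edgeR), or 1.28 without WT 2 and KO 3. Lamb1 had one of 0.09 (SE 0.26), or -0.20 without WT 2 and KO 3. Lamc3 (log2 0.89, or 0.28 without WT 2 and KO 3), picked after its values were seen, was the other one of the 3.

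TGF-beta signalling is a main inducer of fibrillar collagen genes. Of its 15 listed and tested genes, 0 passed, and the median was 0.25. At an unadjusted p under 0.05, 3 were higher, against 6.3% of all genes. Ltbp4, which encodes a latent TGF-beta binding protein, was at 54.9, 36.8 and 69.9 CPM (WT) and 75.4, 93.4 and 169 CPM (KO), without overlap (log2 1.06, SE 0.32, adjusted p = 0.350 by edgeR), or 0.44 without WT 2 and KO 3. The ligand gene Tgfb2 had a log2 fold change of 1.23 (SE 0.44, adjusted p = 0.375 by edgeR), the related Ltbp2 0.02 (SE 0.18) and the receptor gene Tgfbr2 -0.24 (SE 0.18). Ltbp3 (0.83, or 0.25 without WT 2 and KO 3), picked after its values were seen, was the other one of the 3. The collagen receptor gene Ddr1 was among the 9 genes called, at 5.62, 4.803 and 4.21 CPM (WT) and 13.8, 16.2 and 22.3 CPM (KO) (log2 1.84, SE 0.24, adjusted p = 0.0392 by edgeR).

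Several marker lists of cells that can make collagen had positive medians beside it. Endothelial markers (10 of 10 tested, 10 positive) summed to 540, 423 and 627 CPM (WT) and 509, 715 and 905 CPM (KO), with a median of 0.29 and 2 higher at an unadjusted p under 0.05. The log2 fold changes of Pecam1 (-0.12), Tie1 (-0.13), Cldn5 (-0.34) and Esam (-0.03) turned negative without WT 2 and KO 3. Still positive there were Cdh5 (0.08, from 0.74), Kdr (0.31), Tek (0.096), Emcn (0.38), Erg (0.34) and Egfl7 (0.18). Pericyte and smooth muscle markers (10 of 10 tested, 9 positive) summed to 428, 597 and 548 CPM (WT) and 481, 615 and 726 CPM (KO). Their median log2 fold change was 0.58, beside 0.50 for collagens. At an unadjusted p under 0.05, 6 of the 10 were higher (Pdgfrb, Cspg4, Notch3, Acta2, Kcnj8 and Abcc9), against 6.3% of all genes. Without WT 2 and KO 3 these 6 stood at 0.18, 0.60, 0.56, 0.41, 0.56 and 0.23 in that order. Tagln turned negative there (-0.21). For 4 of the 10 pericyte and smooth muscle markers every KO library was above every WT library, against 10.1% of all genes. Rgs5, the most abundant of them, was at 254, 443 and 341 CPM (WT) and 265, 333 and 308 CPM (KO) and made up most of the sum in WT. Both lists were highest in KO 3, as each collagen class was. Fibroblast markers (10 of 10 tested, 6 positive) summed to 294, 332 and 312 CPM (WT) and 319, 317 and 216 CPM (KO). The low sum of KO 3 came from Dcn and Dpt, the 2 of 10 that were lowest there. Dcn was at 103 CPM in KO 3 and 172 to 178 CPM elsewhere, and Dpt at 20.8 CPM in KO 3 and 30.7 to 71.2 CPM elsewhere. The median of this list was 0.14. Schwann cell markers (8 of 8 tested, 7 positive) summed to 122 to 140 CPM in WT and 105 to 167 CPM in KO. Their median was 0.41, with 1 higher at an unadjusted p under 0.05 (6.3% of all genes). Macrophage markers (8 of 8 tested, 3 positive) summed to 51.1 to 76.3 and 50.8 to 75.1 CPM, and skeletal muscle markers (8 of 10 tested, 0 positive) to 9.45 to 49.5 and 2.09 to 42.8 CPM. Brown adipocyte markers (10 of 10 tested, 4 positive) summed to 13917 to 17482 CPM in WT and 16010 to 18211 CPM in KO. No gene of these lists had 0 counts over all libraries, and 0 passed the adjusted threshold in edgeR. The part of cell composition, of the mitochondrial share and of WT 2 and KO 3 as libraries in the collagen levels was not tested beyond the values without those libraries.

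**Figure D4:**
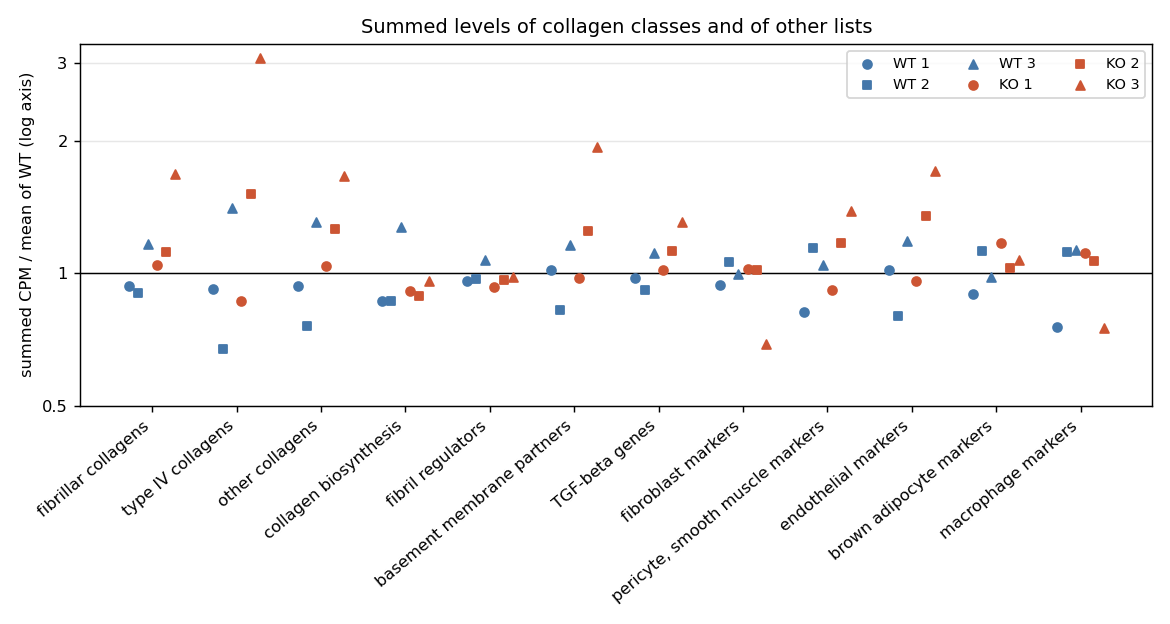
Summed level of the collagen classes and of other gene lists in each library, divided by the mean of the 3 WT libraries (log axis). KO 3 stands highest for all 3 collagen classes, basement membrane partners, TGF-beta genes, pericyte and smooth muscle markers and endothelial markers. It stands lowest for the fibroblast sum, in which Dcn is the most abundant gene, and narrowly for the macrophage sum.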

How the data were processed

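The deposited table holds raw read counts for each gene, all whole numbers. The submitters' processing notes name HISAT2 (2.1.0), featureCounts (1.6.2), DESeq2 and the mm10 build, without roles. Annotation release and strandedness of counting: not given in the sources used here. Per the labels' protocols, poly(A) RNA was made into stranded libraries. Columns were matched to samples by name. KO 4 was not analysed here. Symbols were found for 53620 of 53715 identifiers, and positions and lengths came from GENCODE release M 21 (mm10).

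The edgeR function filterByExpr (minimum count 10, minimum total 15) chose the genes, TMM scaled them, and a quasi-likelihood test in edgeR 4.0.16 under R 4.3.3 compared genotypes with no other term and Benjamini-Hochberg adjustment over 15123 genes at 0.05. The SE is the log2 fold change over the root of the F statistic. Checks used DESeq2 1.42.0 and limma-voom (limma 3.58.1), and the edgeR test was tested on simulated data. Alternatives also covered other scaling, filters, a replicate block and libraries left out. Identical libraries numbered 0. Floors use 3 counts and cover counting error only. The marker lists, the members and the other lists were chosen with earlier results of these data known. Values per library were given, in each class, for the 5 members of highest mean CPM and the 3 of smallest p. Of each other list the 2 genes of highest mean CPM and the 2 of smallest p were named, for cell markers the sums. Genes picked otherwise are said to be. Of the TGF-beta list, 1 result is not reported here.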

Additional observations from a re-analysis of the deposited data

How the results depend on the processing

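With 3 libraries a group, depth limits the low members most, and the tested member of lowest count had 127 counts in all. No collagen was called under DESeq2 size factors, DESeq2, limma-voom, the stricter filter, the robust fit, without mitochondrial genome genes or with any library left out. With no filter 5 were called higher (Col4a1, Col4a2, Col5a1, Col5a3 and Col15a1), a fit whose median total degrees of freedom was 111496 in place of 9.61. Genes called in all numbered 167 with DESeq2, 663 with no filter and 27 without WT 2 and KO 3, and 0 (without KO 2) to 17 (without WT 2) with 1 library left out, against 9. Members higher at an unadjusted p under 0.05 numbered 7 of 42 with DESeq2 (3.57% of genes) and 10 of 42 with no filter (5.48%). They numbered 1 of 29 without WT 2 and KO 3 (4.53% of genes). Leaving out 1 library gave 1 of 28 (without KO 3, 3.59% of genes) to 9 of 28. The 9 came without WT 3 (6.2% of genes) or without KO 1 (6.3%). Members lower numbered 1 (Col27a1) without WT 2 and KO 3 and 0 to 1 with 1 left out. Same-numbered libraries correlated at -0.11, 0.10 and 0.091 in their deviations from the group means. Libraries of unlike number ran from -0.26 (WT 2 with KO 3) to 0.25 (WT 2 with KO 1). With 3 libraries a group these values cannot decide whether the numbers pair libraries. With the replicate block 5 genes were called in all, 0 collagens. In that fit 8 of 28 members were higher at an unadjusted p under 0.05 (6.46% of genes) and 0 lower. Without WT 2 and KO 3 the medians were 0.11 over all tested collagens, 0.086 for fibrillar, -0.028 for type IV and 0.15 for other members. With 1 library left out they ran from 0.24 to 0.61, 0.19 to 0.62, 0.25 to 0.60 and 0.33 to 0.61. The log2 chain ratio differences without WT 2 and KO 3 were -0.010 for Col1a1 to Col1a2 and 0.14 for Col4a1 to Col4a2, and with 1 left out the latter ran from -0.12 to 0.14. Without WT 2 and KO 3, 7 members turned negative: Col4a2 (-0.028), Col4a5 (-0.11), Col4a4 (-0.21), Col6a3 (-0.28), Col11a2 (-0.22), Col7a1 (-0.20) and Col20a1 (-0.41). With 1 library left out, Col4a5 ran from -0.041 to 0.38, Col4a4 from -0.0018 to 0.60, Col27a1 from -0.82 to 0.11, Col6a3 from -0.12 to 0.60 and Col12a1 from -0.12 to 0.52. The cause of these shifts was not tested.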
